A study of Mus musculus with 10 samples.

Results

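The 36 genes described here make sterols, fatty acids and triglycerides or break triglycerides down. They were taken by symbol from the array's annotation, and each had at least 1 probe set that names only that gene, so all 36 were measured among 19938 named genes. Where a gene had several such probe sets, the one with the highest mean over the 10 arrays stood for it. The 36 fall into 17 enzymes of cholesterol synthesis, 3 regulators of sterol genes, 11 genes of fatty acid synthesis, elongation and desaturation, and 5 of triglyceride synthesis and lipolysis. The tissue was the whole oviduct of prepubertal mice aged 21 to 23 days at the first injection, from 5 pools of PRKO animals and 5 pools of PR+/- animals, with the oviducts of 3 animals in each pool. PRKO mice are homozygous for a lacZ insertion that disrupts transcription of both isoforms of the progesterone receptor gene Pgr. PR+/- mice carry 1 copy of the same insertion and are fertile. Every animal of both genotypes received 5 IU of equine chorionic gonadotropin (eCG), which drives follicle growth, then 5 IU of human chorionic gonadotropin (hCG), the ovulatory trigger, 44 to 47 h later, and was sampled 8 h after hCG. The insertion is carried throughout the body, ovary included, and no group without gonadotropins was analysed here.

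Cholesterol is built from acetyl-CoA through mevalonate, squalene and lanosterol. When sterols run low, the membrane-bound factor SREBP2 (gene Srebf2) is cut and enters the nucleus, where it switches on nearly every enzyme of that route. SREBP1 (Srebf1) acts chiefly on fatty acid genes, and INSIG1 holds both factors back in the endoplasmic reticulum. Fatty acids made by FASN are lengthened by elongases and given double bonds by desaturases, and the products are esterified by DGAT enzymes into droplets, from which the lipases encoded by Pnpla2 and Lipe release them again. In steroid-making tissue, cholesterol is also the starting material of progesterone itself.

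None of the 17 cholesterol synthesis enzymes and none of the 3 sterol regulators passed the test. Of the 11 fatty acid genes, 3 fell, and all 3 encode desaturases: Scd1, which puts the first double bond into saturated fatty acids (1.55-fold lower), Fads2 (1.38-fold) and Fads1 (1.25-fold), which add further double bonds to polyunsaturated ones. Of the 5 triglyceride genes, Pnpla2, the lipase that takes the first fatty acid off a triglyceride, fell (1.27-fold lower). None of the 36 rose. In the same pools all 4 smooth muscle markers fell (mean log2 signal 9.07 to 9.34 in PRKO and 10.03 to 10.2 in PR+/-), and their part in the lower desaturase and Pnpla2 signals was not tested. The test was limma's moderated test on the log2 signals with Benjamini-Hochberg adjustment over all 19938 genes at an adjusted p of 0.05, which called 988 genes (4.96%), of which 771 were lower (3.87%) and 217 higher (1.09%). The values of the genotypes did not overlap for 8 of the 36, with all PRKO pools below all PR+/- pools for 7 (Scd1, Scd2, Fads1, Fads2, Pnpla2, Mvk and Tm7sf2; 5.06% of all genes) and above for 1 (Fdft1; 2.15% of all genes). The median log2 difference, PRKO minus PR+/-, was -0.07 over the 36 genes and 0.03 over all genes. With the dimmest 50% of probe sets left out, a filter that 35 of the 36 passed, 11290 genes remained. Their median difference was -0.04.

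**Figure D1:**
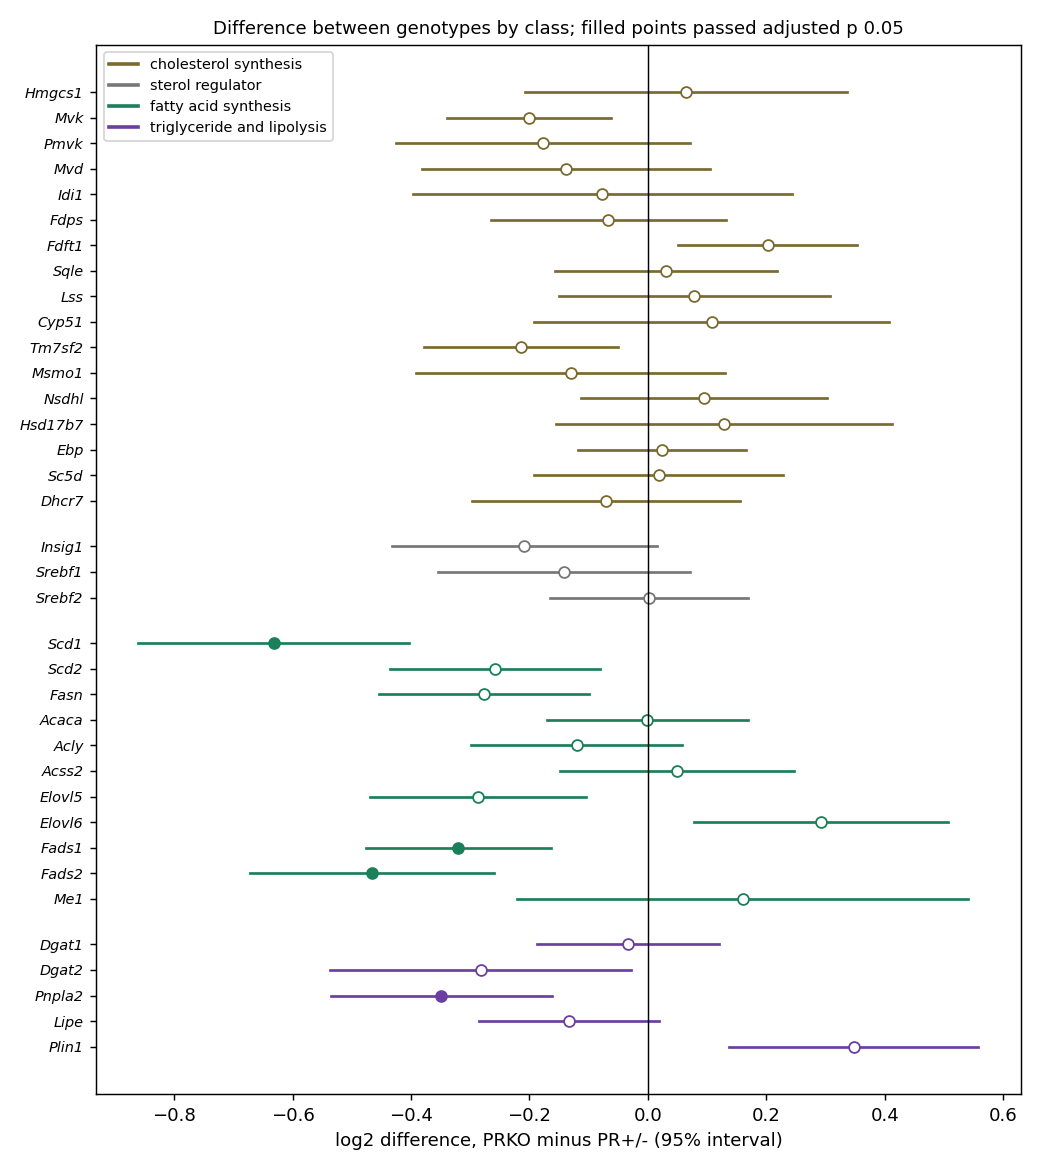
Log2 difference in signal, PRKO minus PR+/-, for each of the 36 genes (points) with its 95% interval (lines), grouped and coloured by class; filled points passed an adjusted p of 0.05. The 17 cholesterol synthesis enzymes lie on both sides of 0, and the 4 filled points, Scd1, Fads1, Fads2 and Pnpla2, lie to the left of it.

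Some facts of the whole data set bear on these genes. Pgr was lower in every PRKO pool, at a log2 signal of 6.31 to 6.39 in PRKO and 7.27 to 7.55 in PR+/- (log2 difference -1.06 ± 0.072 SE). An exact permutation test of both sides gave p = 0.00794, the lowest possible with 252 ways of arranging 10 pools. PRKO pools varied more, with the larger SD in PRKO for 74.7% of all genes, and the interquartile range of the array values was 3.13 to 3.42 in PRKO and 3.37 to 3.48 in PR+/-. The mean signal of 7 measured markers of steroidogenic and granulosa cells of the ovary stood apart on 1 pool of each genotype. It was 5.25 in the third PRKO pool and 5.18 in the fourth PR+/- pool, and at most 4.11 and 3.86 in the others. The signal of Cyp11a1, which starts steroid synthesis from cholesterol, reached 7.10 and 7.04 in those 2 pools. In the remaining pools it was 3.41 to 4.68 in PRKO and 3.05 to 3.92 in PR+/-. Not every marker followed. Fshr read 3.47 in the third PRKO pool and 3.99 in the first, and 3.39 in the fourth PR+/- pool and 3.44 in the fifth. Cyp17a1 read 3.46 in the third PRKO pool and 3.54 in the fifth. In pools of whole tissue, fewer cells of a type and less RNA per cell cannot be told apart.

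Promoter sequence is shown as a description of the classes. RefSeq promoters (GRCm38.p6) were at hand for 28 of the 36 genes, in 35 windows, of which the 250 bases before the start were searched on both strands. The CCAAT box (CCAAT or ATTGG), bound by NF-Y, the usual partner of SREBP, was found for all 14 cholesterol synthesis genes with an entry and all 3 regulators. It was found for 4 of 8 fatty acid genes and 0 of 3 triglyceride genes, and for 37.5% of the 27025 genes in the table. Counted by window, it was in 14 of 17 windows of cholesterol synthesis genes (82.4%) and in 33.8% of all windows. The sterol regulatory element in the form TCACNCCAC was found in Hmgcs1 alone of the 28 (1.22% of all genes), the E-box CACGTG, which SREBP can also bind, in 6 (6.86%), and the inverted repeat ACANNNTGT, the core to which steroid receptors of the progesterone and glucocorticoid receptor type bind, in Lipe alone (6.76%). Of the 4 genes that fell, only Fads2 and Pnpla2 had an entry, and their windows held no match to these motifs. The windows of Acaca, Acly, Elovl6 and Plin1, which did not pass, held no match either. Matches are letters in a short window and not measured binding sites, and the absence of one says nothing of the factor. The windows of Fads2 and Pnpla2 are shown beside those of 2 genes with matches that did not pass, Hmgcs1 and Insig1. All run 5′ to 3′ in the direction of transcription, with CCAAT, sterol element and E-box matches in capitals. They lie at chr19:10101504-10101753 (minus strand) for Fads2, chr7:141454938-141455187 (plus) for Pnpla2, chr13:119690101-119690350 (plus) for Hmgcs1 and chr5:28071162-28071411 (plus) for Insig1.
Fads2: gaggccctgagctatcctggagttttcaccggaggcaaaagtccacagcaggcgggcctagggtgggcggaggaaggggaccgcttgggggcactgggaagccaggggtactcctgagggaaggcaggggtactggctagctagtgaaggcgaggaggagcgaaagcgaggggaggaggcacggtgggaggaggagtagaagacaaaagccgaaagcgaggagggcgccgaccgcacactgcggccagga
Pnpla2: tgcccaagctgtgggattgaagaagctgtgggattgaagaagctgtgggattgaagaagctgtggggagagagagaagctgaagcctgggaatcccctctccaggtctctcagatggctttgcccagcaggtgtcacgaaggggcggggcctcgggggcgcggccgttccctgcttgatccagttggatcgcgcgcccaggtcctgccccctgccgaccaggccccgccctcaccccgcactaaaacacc
Hmgcs1: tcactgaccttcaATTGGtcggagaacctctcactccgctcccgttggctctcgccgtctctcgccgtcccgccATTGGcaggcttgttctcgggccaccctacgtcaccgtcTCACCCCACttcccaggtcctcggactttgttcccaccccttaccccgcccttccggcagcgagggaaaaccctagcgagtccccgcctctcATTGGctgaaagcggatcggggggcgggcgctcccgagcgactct
Insig1: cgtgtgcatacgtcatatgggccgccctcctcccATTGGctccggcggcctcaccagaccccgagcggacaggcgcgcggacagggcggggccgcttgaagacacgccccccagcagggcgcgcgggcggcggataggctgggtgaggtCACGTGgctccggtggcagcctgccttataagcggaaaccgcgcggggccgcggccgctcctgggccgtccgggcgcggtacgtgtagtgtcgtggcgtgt
In Hmgcs1 the sterol element began 137 bases before the start, between CCAAT boxes that began 176 and 45 bases before it, and no matches overlapped. In Insig1 the CCAAT box began 216 and the E-box 101 bases before the start.

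Scd1 encodes the stearoyl-CoA desaturase that makes oleic and palmitoleic acid. Its log2 signals in PRKO replicates 1 to 5 were 6.75, 7.18, 6.92, 7.20 and 7.13, and in PR+/- replicates 1 to 5 they were 7.47, 7.63, 7.60, 7.93 and 7.70. The genotypes did not overlap, and PRKO replicate 1 was the lowest pool and PR+/- replicate 4 the highest. The log2 difference was -0.63 ± 0.11 (SE, n = 5 pools each), with a limma adjusted p of 0.00280. It kept its call in all 18 alternative analyses, at an adjusted p of 5.41e-04 to 0.0491, and was -0.54 (adjusted p = 0.0231) without the 2 pools that had high ovarian marker signal.

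Fads2, the delta-6 desaturase at the entry to long-chain polyunsaturated fatty acids, read 7.86, 7.83, 7.90, 7.93 and 7.40 in PRKO replicates 1 to 5. In PR+/- replicates 1 to 5 it read 8.24, 8.25, 8.18, 8.32 and 8.26. PRKO replicates 1 to 4 lay close together below the narrow PR+/- group, and replicate 5 lay lower still. The log2 difference was -0.47 ± 0.096 (SE, limma adjusted p = 0.0114), and without PRKO replicate 5 it was -0.37 (adjusted p = 0.00566). When the spread of each array (its interquartile range, which itself differed between the genotypes) was added as a covariate, it was -0.29 and no longer passed (adjusted p = 0.283).

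Fads1, the delta-5 desaturase that acts after Fads2, had signals of 8.44, 8.47, 8.32, 8.29 and 8.23 in PRKO replicates 1 to 5. The PR+/- replicates 1 to 5 had 8.73, 8.68, 8.67, 8.57 and 8.72. The lowest PR+/- pool was above the highest PRKO pool by a small margin. The log2 difference was -0.32 ± 0.073 (SE, limma adjusted p = 0.0207). The call was lost without PR+/- replicate 1, 2 or 5 (adjusted p = 0.0626, 0.0570 and 0.0560), without both pools of high ovarian marker signal (0.0614) and with the interquartile range as a covariate (-0.23, 0.288). Fads1 and Fads2 are next to each other on mouse chromosome 19, where Scd1 and Scd2 also lie, separated by Scd4.

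The fourth desaturase of the set, Scd2, which has the same activity as Scd1 and is widely expressed, missed the threshold. Its signals in PRKO replicates 1 to 5 were 10.74, 11.00, 10.82, 10.93 and 10.69, and those of PR+/- replicates 1 to 5 were 11.03, 11.12, 11.01, 11.26 and 11.04. The highest PRKO pool lay just below the lowest PR+/- pool. The log2 difference was -0.26 ± 0.083 (SE, adjusted p = 0.0931). The 4 desaturases, a grouping made after their values were seen and so described without a test, had a median log2 difference of -0.39, against -0.00 for the other 7 genes of the class. The related genes Scd3 and Scd4 had log2 differences of -0.12 and -0.03 and did not pass.

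**Figure D2:**
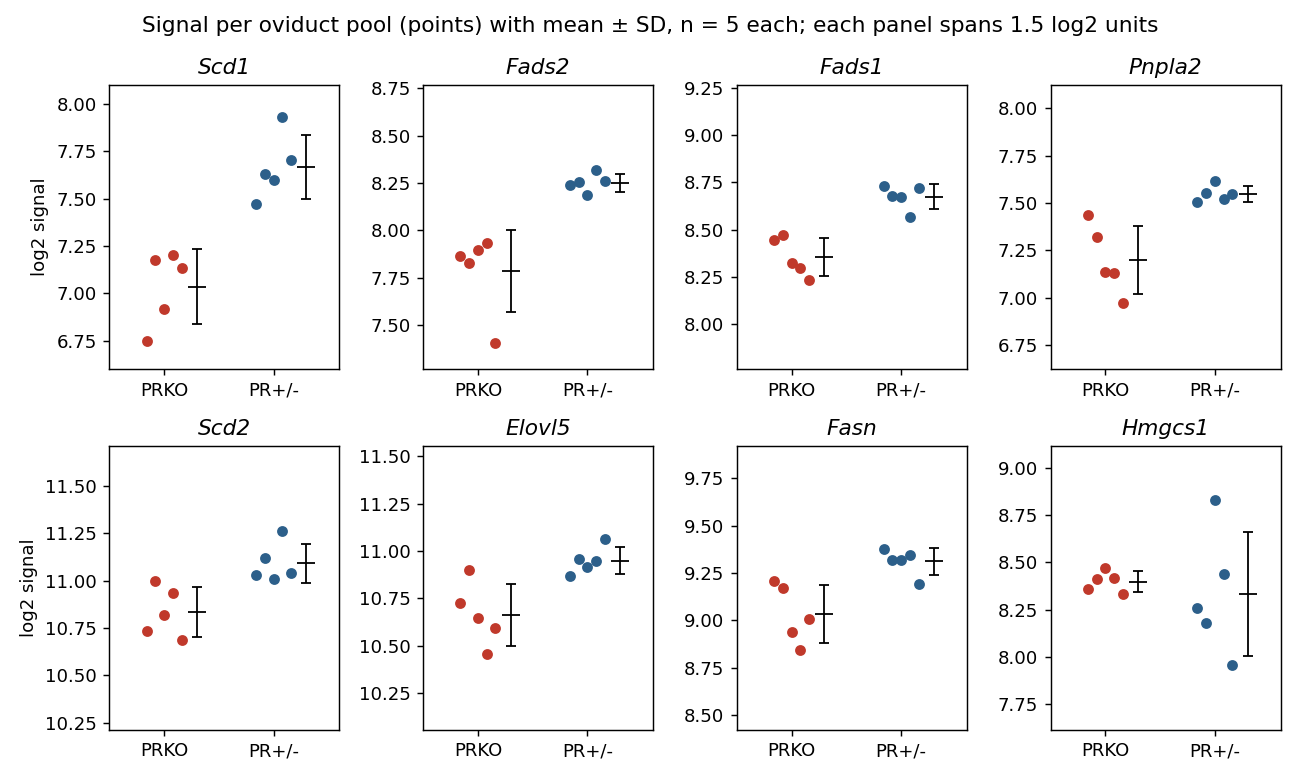
Log2 signal of 8 genes in each oviduct pool (points, replicates 1 to 5 from left to right; PRKO red, PR+/- blue), with the mean ± SD (n = 5 each) beside them. Scd1, Fads2, Fads1, Pnpla2 and Scd2 show no overlap between genotypes, Elovl5 and Fasn overlap by 1 pool, and Hmgcs1 is spread widely in PR+/- alone.

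The other 7 genes of fatty acid synthesis did not pass and had differences of both signs. Fasn, the synthase that builds palmitate, had signals of 9.21, 9.17, 8.94, 8.84 and 9.01 in PRKO replicates 1 to 5, against 9.38, 9.32, 9.32, 9.35 and 9.19 in PR+/- replicates 1 to 5. PRKO replicate 1 reached just above PR+/- replicate 5, and otherwise PRKO was below (log2 difference -0.28 ± 0.083, adjusted p = 0.0737). Elovl5, which lengthens polyunsaturated fatty acids between the steps of the FADS enzymes, read 10.72, 10.90, 10.64, 10.46 and 10.59 in PRKO replicates 1 to 5, against 10.87, 10.96, 10.92, 10.95 and 11.06 in PR+/- replicates 1 to 5. Only PRKO replicate 2 entered the PR+/- range, and the log2 difference was -0.29 ± 0.085 (adjusted p = 0.0721). Both genes and Scd2 passed when the dimmest 50% of probe sets were left out (adjusted p = 0.0351, 0.0346 and 0.0477) and under moderation with a variance trend (0.0288, 0.0215 and 0.0314). Those settings called more genes in all, 1201 of 11290 and 1239 of 19938, where the main test called 988 of 19938.

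Elovl6, the elongase that turns palmitate into stearate, had the opposite sign, with signals of 6.50 to 6.97 in PRKO (median 6.81) and 6.36 to 6.64 in PR+/- (median 6.43). The ranges overlapped through PRKO replicate 5, and the log2 difference was 0.29 ± 0.10 (adjusted p = 0.113), or 0.36 without that pool (0.0415). Acaca, the carboxylase that makes malonyl-CoA, had a difference of -0.00 (95% interval -0.17 to 0.17) and its second probe set one of 0.08. The acetyl-CoA suppliers Acly and Acss2 had differences of -0.12 and 0.05. Me1, the malic enzyme that supplies NADPH, had the widest interval of the class, -0.22 to 0.54. Its signal was 7.72 in both pools of high ovarian marker signal and 7.56 in PRKO replicate 4, while it was 6.88 to 7.16 in the other PRKO pools and 6.87 to 7.15 in the other PR+/- pools. The part of the ovarian markers in that pattern was not tested.

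Among the triglyceride genes, Pnpla2 read 7.44, 7.32, 7.13, 7.13 and 6.97 in PRKO replicates 1 to 5. In PR+/- replicates 1 to 5 it read 7.50, 7.55, 7.62, 7.52 and 7.55. The PR+/- pools lay within a narrow band and the PRKO pools were spread below it (SD 0.18 in PRKO and 0.043 in PR+/-). The log2 difference was -0.35 ± 0.087 (SE, limma adjusted p = 0.0339). The call was the least stable of the 4: it passed in 6 of 18 alternatives, was lost without any 1 of the PR+/- pools or of PRKO replicates 3 to 5 (adjusted p = 0.0599 to 0.0826), and with the replicate number as a block its adjusted p was 0.0526. With the interquartile range as a covariate it was -0.23 (0.406).

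Lipe, the hormone-sensitive lipase that acts on diglycerides after Pnpla2, had signals of 5.53, 5.59, 5.41, 5.52 and 5.35 in PRKO replicates 1 to 5 and 5.58, 5.67, 5.63, 5.53 and 5.65 in PR+/- replicates 1 to 5. The groups overlapped and the log2 difference was -0.13 ± 0.071 (adjusted p = 0.299). Plin1, the perilipin that coats droplets and restrains lipolysis in fat cells, had a difference of 0.35 ± 0.098 and just missed the threshold (adjusted p = 0.0583), with signals of 4.71, 4.37, 4.69, 4.56 and 4.68 in PRKO replicates 1 to 5 and 4.09, 4.23, 4.26, 4.13 and 4.55 in PR+/- replicates 1 to 5. PR+/- replicate 5 lay among the PRKO pools, and without it the difference was 0.42 and passed (0.0209), as it did without PRKO replicate 2 (0.41, 0.0281). None of 7 measured adipocyte markers passed, with 5 log2 differences above 0 and 2 below. All PRKO pools lay above all PR+/- pools for 1 of the 7, Lep (beside 2.15% of all genes). The mean of the 7 was 4.01 to 4.17 in PRKO and 3.96 to 4.04 in PR+/-. The part of these markers in the Plin1 difference was not tested. Adipoq, the adiponectin gene that defines fat cells, read 2.60 to 3.00 in PRKO and 2.47 to 2.73 in PR+/-, where the array values start at 1.09. Only 7.53% of named genes had a lower mean signal than Adipoq, so it was near the floor. The final esterifying enzymes Dgat1 and Dgat2 had differences of -0.03 and -0.28 (adjusted p = 0.815 and 0.190). Dgat2 read 7.90 to 8.58 in PRKO (median 8.15) and 8.46 to 8.67 in PR+/- (median 8.50), so PRKO replicates 1 and 2 lay in the PR+/- range and the other 3 below it.

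The enzymes that lead to cholesterol showed no call in either direction. Their median log2 difference was 0.02, with 9 above 0 and 8 below, and the 17 intervals of 95% together spanned -0.43 to 0.41, so none of them held a change beyond 1.34-fold. At an unadjusted p under 0.05 there were 3 (Mvk, Fdft1 and Tm7sf2), where all genes gave 4215 of 19938. At the background share of 4.96%, fewer than 1 call among 17 would be the average, so a count of 0 does not set the class apart. Across the 18 alternatives a call was made only when the dimmest 50% of probe sets were left out, for Mvk (adjusted p = 0.0437), a filter that all members but Plin1 passed. That setting called 1201 of 11290 genes in all.

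In the mevalonate arm, Hmgcs1, which joins acetyl-CoA units at the start, read 8.36, 8.41, 8.47, 8.42 and 8.33 in PRKO replicates 1 to 5. In PR+/- replicates 1 to 5 it read 8.26, 8.18, 8.83, 8.44 and 7.96. The PRKO pools sat tightly inside the much wider PR+/- range (SD 0.054 in PRKO and 0.33 in PR+/-), and the log2 difference was 0.06 ± 0.13 (adjusted p = 0.796). Mevalonate kinase, Mvk, was the member of the class nearest the threshold, with signals of 5.97, 5.97, 5.91, 5.90 and 5.85 in PRKO replicates 1 to 5 and 6.07, 6.17, 6.16, 6.12 and 6.08 in PR+/- replicates 1 to 5. All PRKO pools lay below all PR+/- pools, by a log2 difference of -0.20 ± 0.065 (adjusted p = 0.0947). The later kinase Pmvk, the decarboxylase Mvd, the isomerase Idi1 and the farnesyl diphosphate synthase Fdps had differences of -0.18, -0.14, -0.08 and -0.07.

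At the first sterol-committed step, Fdft1 (squalene synthase) read 8.76 to 8.87 in PRKO (median 8.80), all above the 8.47 to 8.69 of PR+/- (median 8.62). Its log2 difference was 0.20 ± 0.071 (adjusted p = 0.118), while its second, dimmer probe set had 0.02, so the gene's probe sets disagreed. Sqle, the squalene epoxidase that limits flux in many cells, read 7.71, 7.74, 7.56, 7.76 and 7.57 in PRKO replicates 1 to 5, against 7.51, 7.79, 7.75, 7.72 and 7.43 in PR+/- replicates 1 to 5. The groups overlapped almost fully (difference 0.03 ± 0.087, adjusted p = 0.865). Lss, which closes the ring system of lanosterol, had a difference of 0.08.

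Of the enzymes that turn lanosterol into cholesterol, Tm7sf2 (a C14 sterol reductase) read 5.98 to 6.23 in PRKO (median 6.09) and 6.24 to 6.44 in PR+/- (median 6.30). It had the most negative difference of the class, -0.21 ± 0.076 (adjusted p = 0.128). Lbr, whose protein has the same reductase activity besides its role at the nuclear lamina, had -0.21 and missed the threshold too, also with all PRKO pools below all PR+/- pools. The demethylation enzymes Cyp51, Msmo1, Nsdhl and Hsd17b7 had differences of 0.11, -0.13, 0.09 and 0.13, and the last steps Ebp, Sc5d and Dhcr7 had 0.02, 0.02 and -0.07. The adjusted p of these 7 ranged upward from 0.562.

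None of the 3 regulators passed. Srebf2 read 8.30, 8.31, 8.12, 8.09 and 8.00 in PRKO replicates 1 to 5 and 8.18, 8.15, 8.23, 8.12 and 8.13 in PR+/- replicates 1 to 5, with a log2 difference of 0.00 ± 0.078 (95% interval -0.16 to 0.17). Srebf1 read 7.80, 7.81, 7.57, 7.37 and 7.40 in PRKO replicates 1 to 5, against 7.67, 7.83, 7.81, 7.76 and 7.58 in PR+/- replicates 1 to 5. PRKO replicates 3 to 5 lay below every PR+/- pool and the other 2 within the range (difference -0.14 ± 0.099, adjusted p = 0.433). Insig1, itself an SREBP target, read 8.62, 8.75, 8.68, 8.24 and 8.67 in PRKO replicates 1 to 5, against 8.81, 8.83, 8.79, 9.00 and 8.57 in PR+/- replicates 1 to 5. PR+/- replicate 5 lay within the PRKO range, and the difference was -0.21 ± 0.10 (adjusted p = 0.269). The array measures transcripts, so the cut, active form of the SREBP proteins was not observed.

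The cholesterol synthesis enzymes deviated in the same direction in several pools of the same genotype. In PR+/- replicate 5, 16 of the 17 lay below the mean of their genotype, and in replicates 3 and 4, 14 of the 17 lay above it. PR+/- replicate 4 was the highest of all 10 arrays for 6 of the 17 and PR+/- replicate 5 the lowest for 5. Within PRKO, 14 of the 17 were above the genotype mean in replicate 2. Such counts were not made over all genes, so they do not set the class apart from a shift of the whole array. Averaged over the 17, the deviation from each gene's 10-array mean was -0.08 to 0.09 in PRKO and -0.15 to 0.16 in PR+/-. The median SD of the class was 0.11 in PRKO and 0.17 in PR+/-, where over all genes it was 0.17 in PRKO and 0.11 in PR+/-. By count, 9 of the 17 still had the larger SD in PRKO, among them Mvd (0.25 in PRKO and 0.13 in PR+/-) and Dhcr7 (0.23 in PRKO and 0.11 in PR+/-). PR+/- replicate 4 is also the pool with high ovarian marker signal, but replicate 3 is not (mean signal of 7 ovarian markers 5.18 and 3.86); their part in this spread was not tested.

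**Figure D3:**
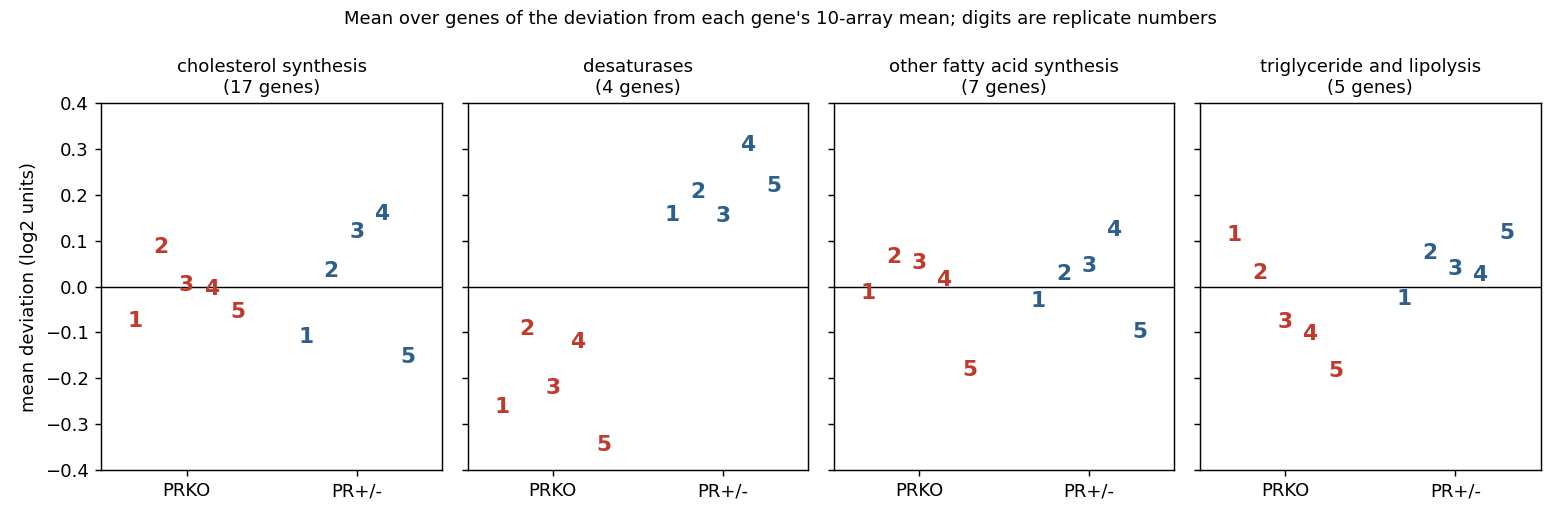
Mean over the genes of a class of the deviation from each gene's mean over 10 arrays, in log2 units, for each pool (digits are replicate numbers; PRKO red, PR+/- blue). The cholesterol synthesis panel shows overlapping groups with PR+/- replicates 4 and 5 at its ends (0.16 and -0.15), while the desaturase panel shows -0.35 to -0.09 in PRKO and 0.15 to 0.31 in PR+/-; the 4 desaturases were grouped after their values were seen.

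The orders of the pools for the desaturases and the cholesterol enzymes matched in part. PR+/- replicate 4 had the highest mean deviation of the 10 arrays for both sets, 0.31 for the desaturases and 0.16 for the cholesterol enzymes. Within PRKO, replicate 2 was the highest for both, at -0.09 for the desaturases and 0.09 for the cholesterol enzymes, and replicates 1 and 5 were the 2 lowest for both. PR+/- replicate 5 differed, with the lowest mean for the cholesterol enzymes, -0.15, and the second highest for the desaturases, 0.22. PRKO replicate 5 had the lowest desaturase mean, -0.35, and was the lowest of all 10 arrays for 3 of the 4. That pool also had the narrowest interquartile range, 3.13, whose part was not tested. PRKO replicate 1 was the lowest array for Scd1 and also for Idi1, Cyp51 and Msmo1.

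**Figure D4:**
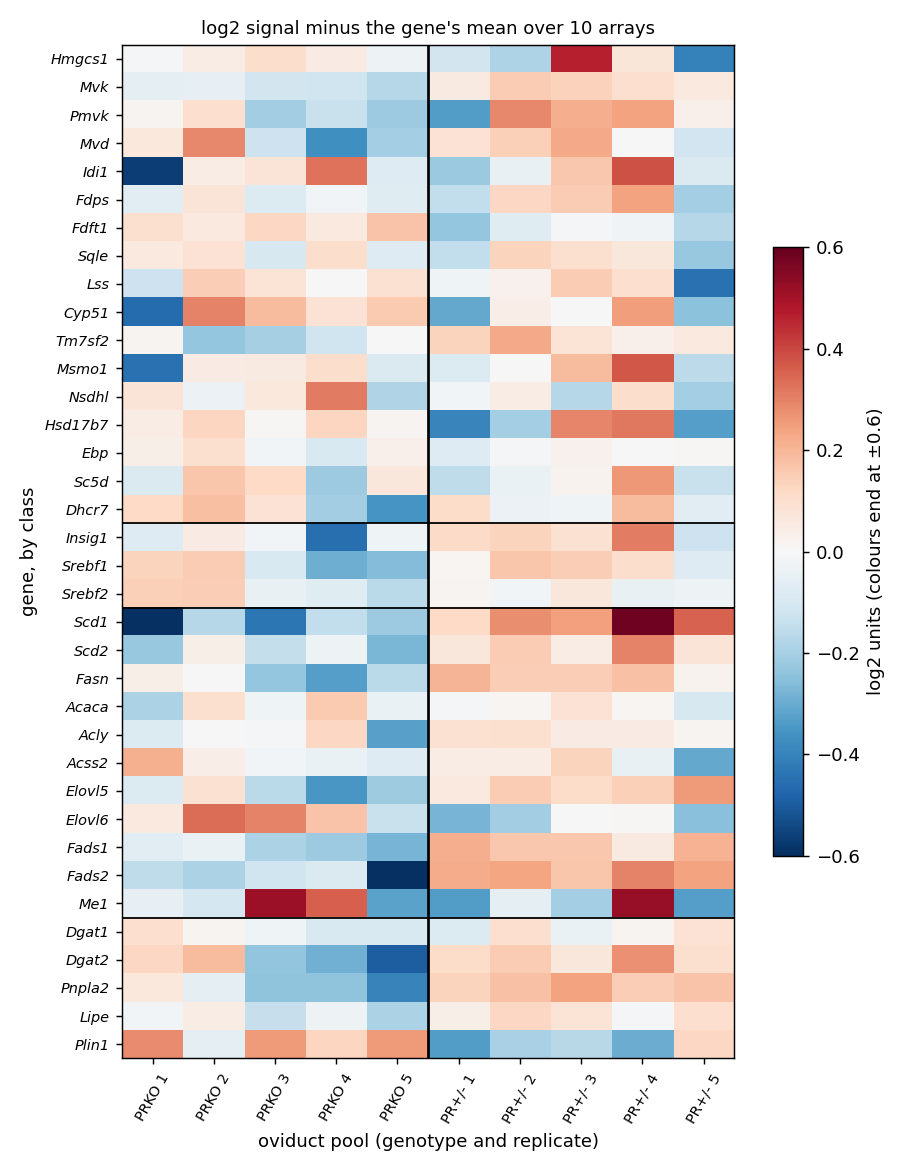
Log2 signal minus the gene's mean over the 10 arrays (colour, ending at ±0.6) for the 36 genes (rows, by class) in each pool (columns, PRKO left of the line, PR+/- right). The rows of Scd1, Scd2, Fads1 and Fads2 are blue to near white in PRKO and red to near white in PR+/-. The cholesterol synthesis rows above change colour between pools of the same genotype.

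The wider pathway was followed through 75 related genes, of which 65 were measured. Of these, 4 fell, 0 rose and 61 did not pass, beside 3.87% of all genes lower and 1.09% higher. The median log2 difference of the 65 was -0.06. All PRKO pools lay below all PR+/- pools for 3 of the 65 (Lbr, Acsl4 and Acadl, beside 5.06% of all genes). They lay above for 3 others (Acacb, Gpam and Mogat1, beside 2.15% of all genes). None of the 11 measured genes of sterol sensing, uptake and export passed; Scarb1, the receptor that takes cholesterol from high-density lipoprotein, had the most negative value, -0.42 ± 0.13 (adjusted p = 0.0810). Among 15 other fatty acid genes 1 fell, Acsl4, which activates arachidonic acid to its CoA ester (1.29-fold lower). It read 9.05, 9.17, 9.18, 9.21 and 9.00 in PRKO replicates 1 to 5 and 9.29, 9.53, 9.43, 9.68 and 9.51 in PR+/- replicates 1 to 5, without overlap (log2 difference -0.36 ± 0.083, adjusted p = 0.0217).

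Among 14 other lipolysis and droplet genes, 1 fell, Mgll, the lipase that takes the last fatty acid off after Pnpla2 and Lipe. It was 1.36-fold lower (-0.45 ± 0.10, adjusted p = 0.0182), with 6.14 to 6.70 in PRKO (median 6.32) and 6.69 to 6.95 in PR+/- (median 6.83). Only PRKO replicate 2 reached the PR+/- range. The droplet coat genes Plin2, Plin3 and Plin5 had differences of -0.10, -0.07 and -0.25, and Abhd5 and G0s2, which activate and inhibit the lipase of Pnpla2, had 0.01 and -0.03. Of 15 genes of uptake and oxidation 2 fell: Acadl, the long-chain acyl-CoA dehydrogenase of mitochondria (-0.34 ± 0.067, adjusted p = 0.00891), and Pdk4, the kinase that turns off pyruvate dehydrogenase when fat is burnt (-0.46 ± 0.11, adjusted p = 0.0274). Acadl read 7.92 to 8.08 in PRKO and 8.26 to 8.40 in PR+/-, without overlap. Pdk4 read 4.71 to 5.26 in PRKO and 5.24 to 5.46 in PR+/-, where only PRKO replicate 3 reached the PR+/- range. The 9 genes of triglyceride assembly had no call, with Agpat1 at -0.34 (adjusted p = 0.0871) and Mogat1 at 0.34 (0.0555).

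Markers of the cells that these pools could hold moved unequally. The 4 smooth muscle markers that fell were Acta2, Myh11, Des and Cnn1, with log2 differences of -0.60, -0.72, -1.51 and -0.92. None of the 4 measured markers of oviduct epithelium (Pax8, Epcam, Krt8 and Foxj1) passed, with a mean of 8.28 to 8.60 in PRKO and 8.37 to 8.59 in PR+/-. None of 7 ovarian markers passed, and their mean was 3.77 to 5.25 in PRKO and 3.70 to 5.18 in PR+/-. Of 2 endothelial markers Pecam1 fell (-0.27, adjusted p = 0.0374) and Cdh5 did not pass (-0.02), and neither leukocyte marker passed.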

How the data were processed

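Biotin-labelled cRNA from 10 pools of oviduct RNA was measured on Affymetrix whole-transcript arrays, per the labels' protocols. The authors deposited 1 value per probe set and array. The submitters' processing notes name Partek; how it corrected background, normalized and summarised probes, and in which version, is not given in the sources used here. That the deposited values are log2 signals was inferred from their range (1.09 to 13.6), and every fold rests on it. They were not normalized again, since the array medians lay between 5.20 and 5.28. Signals near the bottom of the range may understate a change, and precision is limited by the 5 arrays per genotype.

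The annotation table gave 1 symbol for 21789 of the 35557 rows, several for 1621 and none for 12147, and only rows with 1 symbol were used. Gene IDs served to look for newer symbols in the RefSeq gene table (21698 matched). Genes were tested with limma 3.58.1 in R 4.3.3 (genotype as the only term, 8 residual and 6.08 prior degrees of freedom), adjusted over all 19938 genes; a value with ± is the log2 difference and its SE unless SD is named. Intervals are 95%. The procedure was tested on simulated data. The limma p-values set the difference between genotypes against the moderated spread between pools, which the labels call biological replicates. Pgr was fitted with limma like every other gene, and it was also tested alone by an exact permutation test in scipy 1.17.1.

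The members, the related lists and the marker lists were chosen with earlier results of these data known. All 36 members were to be named, per-array values were to be given for called members, those nearest the threshold and 8 key genes, and related genes were to be named where called; any further related gene named here was picked once its values were known. Alternatives were quantile normalization, centring on array medians, a filter on dim probe sets, averaging all probe sets of a gene, a variance trend with robust moderation, the interquartile range as a covariate, the replicate block, leaving out the 2 pools with high ovarian marker signal, and leaving out each array in turn.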

Additional observations from a re-analysis of the deposited data

Results flagged for a closer look

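In 3 of the 74 groups of 5 pools examined (36 genes and Pgr, each genotype), 1 pool lay far from the others by Dixon's test, and chance alone flags about 1 in 20 groups. Fads2 read 7.40 in PRKO replicate 5, against 7.83 in the next lowest PRKO pool. Cyp51 read 5.82 in PRKO replicate 1, where the next lowest PRKO pool had 6.37. Insig1 read 8.24 in PRKO replicate 4, where the next lowest had 8.62.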

How the results depend on the processing

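The counts are small, so 1 gene moves them. Of the fatty acid genes, 6 fell instead of 3 with the dimmest 50% of probe sets left out or with the variance trend, and 1 with the interquartile range as a covariate, which called 322 genes in all instead of 988. Of the triglyceride genes, 0 fell instead of 1 under quantile normalization, with the interquartile range as a covariate, with the replicate block and without both pools of high ovarian marker signal (562 genes in all). Of the cholesterol synthesis enzymes, 1 fell with the dimmest 50% left out and 0 otherwise. Leaving out 1 array gave 581 to 1165 calls in all (581 and 598 without PR+/- replicates 1 and 2), 2 to 4 fatty acid genes lower and 0 to 1 higher (Elovl6, without PRKO replicate 5), and 0 to 1 triglyceride genes in each direction. No cholesterol enzyme or regulator was called in those 10 fits, and Pgr was -1.10 to -1.03. The cause of these changes was not tested, except that leaving out arrays reduces the samples and the dim filter the genes tested.

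The labels give no shared source for arrays of 1 number. The deviations of same-numbered arrays correlated at 0.104, 0.125, 0.129 and 0.159 for replicates 1, 2, 4 and 5 and at -0.0126 for replicate 3, and 2 of the 5 PRKO arrays correlated best with the PR+/- array of their own number. Since 1 of the 5 was not over 0.1, the numbers were not taken as pairs. The replicate block ended the call of Pnpla2 (adjusted p = 0.0526) and no other among the 36. Genes near 0 changed sign: Acaca was 0.052 under quantile normalization, 0.039 with the mean of its probe sets, 0.082 with the covariate and 0.0092 without the 2 pools. With centred arrays Sqle was -5.74e-04, Ebp -0.0077, Sc5d -0.013 and Srebf2 -0.029, and with the covariate Mvd was 0.017, Sc5d -0.027, Dhcr7 0.095 and Acly 0.047. Without 1 array, the genes that changed sign had differences of -0.029 to 0.19 for Hmgcs1, -0.17 to 0.055 for Idi1, -0.022 to 0.068 for Sqle, -0.023 to 0.13 for Lss, -0.020 to 0.086 for Sc5d, -0.12 to 0.0085 for Dhcr7, -0.034 to 0.043 for Srebf2, -0.040 to 0.047 for Acaca and -0.021 to 0.089 for Acss2. None of these passed in any alternative.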
